A study of Mus musculus with 16 samples.

Results

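The genes described here are the 37 mouse genes for aminoacyl-tRNA synthetases among the 29806 gene rows of the deposited tables. They were chosen by name alone: the 1-letter amino acid code followed by ars for the cytosolic enzymes, the same ending in ars2 for the mitochondrial ones, together with Eprs, Farsa and Farsb. This gave 20 cytosolic and 17 mitochondrial genes. The libraries came from mouse bone marrow, from haematopoietic stem cells (HSC) and from multipotent progenitors with a myeloid bias that lacked Fcgr on their surface (MPP3), each from wild-type controls and from Jak2V617F mice. The 4 groups, control HSC, Jak2V617F HSC, control MPP3 and Jak2V617F MPP3, held 4 libraries each. Jak2V617F is a change that keeps the kinase JAK2, which relays cytokine signals, active without a ligand. The labels give no strain, age or sex of the mice, no promoter or Cre line behind the allele, and no treatment. Batch here means the replicate number in the labels, and libraries of the same number are not stated to have been prepared together. Separate animals are not stated for the replicates, and p-values therefore reflect only the spread among these libraries.

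Aminoacyl-tRNA synthetases join each amino acid to its tRNA and so supply translation. The cytosolic and the mitochondrial enzymes are both encoded in the nucleus, mostly by separate genes. Gars and Kars are the exceptions, since each encodes the enzyme of both compartments, and Eprs encodes a fused enzyme for glutamate and proline. Mitochondria have no glutaminyl-tRNA synthetase of their own and make glutaminyl-tRNA with an amidotransferase. When amino acids run short, uncharged tRNA activates the kinase GCN2 (Eif2ak4), phosphorylated eIF2 favours translation of the transcription factor ATF4, and ATF4 raises many cytosolic synthetase genes. The ER stress kinase PERK acts on the same eIF2. MYC is another known activator of genes for protein synthesis.

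Promoter windows from RefSeq (GRCm38.p6), 250 bases before to 50 bases after a gene's start, were matched for 26 of the 37 genes. Each was searched on both strands for TGATGNAA, the core of the C/EBP-ATF element that ATF4 binds, and for CACGTG, the E-box that MYC and MAX bind. The motifs can share bases where they adjoin, and no matches did so in the windows printed here. The 5 windows below are shown because they set 3 cytosolic genes with both motifs (Aars, Tars, Iars) beside a cytosolic gene that rose in mutant HSC with neither (Kars) and a mitochondrial gene with neither (Tars2). They lie at chr8:111033592-111033891 (plus strand), chr15:11399609-11399908 (minus strand), chr13:49681880-49682179 (plus strand), chr8:112011305-112011604 (minus strand) and chr3:95754928-95755227 (minus strand). Each is written 5′ to 3′ in the direction of the gene, with motif matches in capitals. RefSeq's starts differ from the GENCODE gene bounds given with the results: they lie 698 bases downstream for Aars, 5229 for Tars2, 7 for Tars and 30 for Iars, and at -31 (upstream) for Kars.
Aars: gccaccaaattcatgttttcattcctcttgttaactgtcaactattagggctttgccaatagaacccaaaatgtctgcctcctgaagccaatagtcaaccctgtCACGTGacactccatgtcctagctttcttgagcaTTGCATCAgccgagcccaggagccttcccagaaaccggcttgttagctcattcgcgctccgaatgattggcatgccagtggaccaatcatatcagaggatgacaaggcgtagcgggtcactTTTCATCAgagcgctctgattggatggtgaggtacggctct
Tars: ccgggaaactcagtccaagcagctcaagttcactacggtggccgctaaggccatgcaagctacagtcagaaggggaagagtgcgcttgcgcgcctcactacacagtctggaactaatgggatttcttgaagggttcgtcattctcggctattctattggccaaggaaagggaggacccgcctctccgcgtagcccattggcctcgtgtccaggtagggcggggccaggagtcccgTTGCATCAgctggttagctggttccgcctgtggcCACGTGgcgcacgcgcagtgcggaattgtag
Iars: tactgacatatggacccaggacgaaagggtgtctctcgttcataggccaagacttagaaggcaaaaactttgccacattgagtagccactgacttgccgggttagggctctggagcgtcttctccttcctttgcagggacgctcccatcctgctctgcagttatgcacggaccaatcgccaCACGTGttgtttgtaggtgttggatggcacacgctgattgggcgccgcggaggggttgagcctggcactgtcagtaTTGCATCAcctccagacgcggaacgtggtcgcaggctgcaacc
Kars: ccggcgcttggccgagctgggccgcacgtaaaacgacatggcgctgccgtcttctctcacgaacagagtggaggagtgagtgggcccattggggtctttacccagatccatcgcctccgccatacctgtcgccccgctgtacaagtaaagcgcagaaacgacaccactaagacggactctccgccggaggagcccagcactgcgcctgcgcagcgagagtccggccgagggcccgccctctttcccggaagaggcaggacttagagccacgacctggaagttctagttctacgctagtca
Tars2: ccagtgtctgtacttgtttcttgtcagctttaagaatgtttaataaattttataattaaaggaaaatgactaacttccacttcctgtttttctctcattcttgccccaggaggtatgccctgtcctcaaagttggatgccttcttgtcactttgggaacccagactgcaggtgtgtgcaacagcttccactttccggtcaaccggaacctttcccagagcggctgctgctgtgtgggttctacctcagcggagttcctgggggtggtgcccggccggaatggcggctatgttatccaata

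The C/EBP-ATF core was present in 5 of the 12 cytosolic genes with a window (41.7%), in 0 of 14 mitochondrial genes, and in 3.97% of all 32851 windows. Aars held it in 2 places, starting 112 bases before the RefSeq start (position -112) and at position 10 after it. Tars held it at position -15, Gars at -30, Iars at 8 and Yars at 4. The E-box was present in 4 of 12 cytosolic windows (Aars, Farsb, Iars and Tars), in 1 of 14 mitochondrial windows (Ears2) and in 7.15% of all windows. A match describes these letters in this window and is not a binding site shown by the data. The other 11 genes had no window to search.

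Each library held 33372210 to 41520158 estimated counts. The synthetase genes held 0.644% to 0.771% of the counts. All 37 genes passed the filter on low counts; the lowest count of any of them in a library was 142 (Yars2). The 11 MPP3 markers tested were higher in MPP3 than in HSC in both genotypes, and 8 of 9 HSC markers were lower in control MPP3 but 5 of 9 in Jak2V617F MPP3. The 6 B cell markers summed to 72.2 to 93.9 CPM in control HSC, 53.1 to 66.6 in mutant HSC, 113 to 214 in control MPP3 and 70.8 to 117 in mutant MPP3; Pax5 and Vpreb1 were at 0 in both HSC groups. Of the 5 tested, 4 were called higher in MPP3 than in HSC in each genotype. Of all 14179 genes tested, 946 were called higher and 980 lower in control MPP3, and 523 and 663 in Jak2V617F MPP3. The 7 neutrophil genes summed to 19.7 to 64.9 CPM in control HSC and 2.01 to 44.9 CPM in Jak2V617F HSC. In MPP3 they summed to 5.17 to 277.5 CPM in control and 2.18 to 203.9 CPM in mutant libraries. The 8 erythroid genes summed to 109.5 to 435.9 CPM in control HSC and 128.9 to 329.0 in mutant HSC. Their sums were 436.8 to 866.2 CPM in control MPP3 and 90.3 to 286.9 in mutant MPP3, without overlap. None of the 8 was called between genotypes in either cell type. The mutated base of Jak2 cannot be read from gene counts.

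Across genes, levels are compared in TPM (transcript abundance scaled to gene length and library total), as the mean over the 16 libraries. Among cytosolic genes, the lysine enzyme gene Kars stood highest at 353.5 TPM, followed by Farsa, the alpha subunit of the phenylalanine enzyme, at 153.9 TPM and the asparagine enzyme gene Nars at 139.3 TPM. The lowest levels were 36.6 TPM for Aars (alanine), 27.7 TPM for Cars (cysteine) and 19.6 TPM for Gars (glycine). Kars was apart from its neighbours: its lowest library, at 288.9 TPM, lay above the highest library of Farsa, at 197.3 TPM. The order in the middle of the list is not resolved, since the ranges of neighbours overlap in the plot of levels by group. The median of the 20 cytosolic genes was 80.3 TPM.

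**Figure D1:**
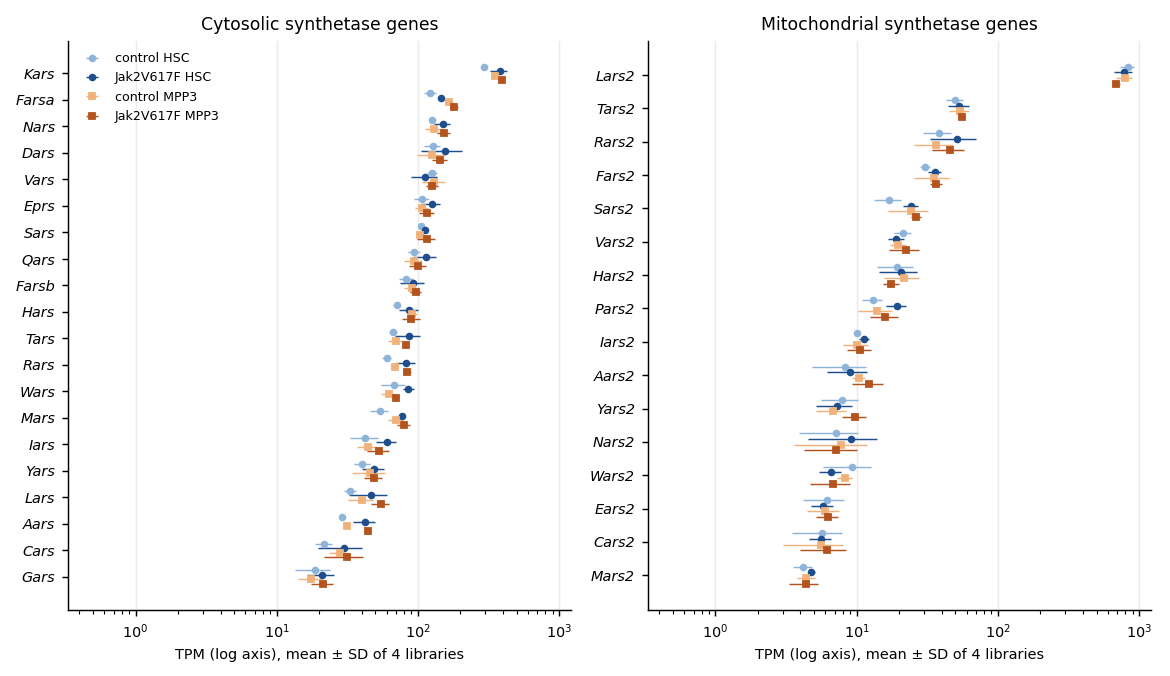
Level of each synthetase gene in TPM on a log axis, cytosolic genes on the left and mitochondrial genes on the right, ordered by the mean over 16 libraries; points are means and bars SD of 4 libraries per group, with 16 of the 17 mitochondrial genes drawn. Cytosolic means run from 19.6 (Gars) to 353.5 TPM (Kars), and mitochondrial ones from 4.43 (Mars2) to 53.3 TPM (Tars2), apart from Lars2 at 772.8 TPM.

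Mitochondrial synthetase genes were lower, with a median of 15.6 TPM over 17 genes. Tars2 (threonine) stood at 53.3 TPM, while Ears2 (glutamate) stood at 6.02 TPM, Cars2 (cysteine) at 5.76 TPM and Mars2 (methionine) at 4.43 TPM. Lars2, which encodes the mitochondrial leucine enzyme (chromosome 9, 123366927 to 123462666), stood far above the rest at 772.8 TPM, with libraries from 635.9 to 950.9 TPM. Of its 31-base words, 0.923% also occur in another annotated gene. Gene totals do not show where along Lars2 its reads lie. Whether a repeated or ribosomal RNA-like stretch draws reads was not tested, and this bears on its level, on the leucine ratio and on every share that includes it. For 16 of the 17 amino acid pairs, the cytosolic gene had more TPM than the mitochondrial gene. Eprs served as the cytosolic gene of both the glutamate and the proline pair, and Farsa, not Farsb, as that of phenylalanine. The median ratio was 4.77, the highest 18.8 (Eprs over Ears2), and the lowest apart from leucine 1.43 (Tars over Tars2). Leucine was the exception, with Lars at 0.0565 times the TPM of Lars2.

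Summed over the 20 cytosolic genes, control HSC libraries 1 to 4 held 1701, 1604, 1729 and 1713 TPM, and Jak2V617F HSC libraries 2155, 2107, 1701 and 2243 TPM. Control MPP3 held 1813, 1712, 1976 and 1965 TPM, and Jak2V617F MPP3 held 2120.1, 2031, 1985 and 2192 TPM. In HSC, 3 of the 4 mutant libraries lay above every control, and mutant replicate 3 lay within the control range. In MPP3, every mutant library lay above every control. The means were 1687 ± 56.2 and 2052 ± 240.3 TPM in control and mutant HSC, and 1866 ± 127 and 2082 ± 92.4 TPM in control and mutant MPP3 (SD, n = 4). These sums get no test, because the genes were chosen with results of these data known.

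The 16 mitochondrial genes other than Lars2 summed to 279.9 ± 25.2 TPM in control HSC (254.1 to 309.6), 336.4 ± 46.8 in mutant HSC (295.6 to 384.0), 309.9 ± 29.7 in control MPP3 (272.3 to 337.6) and 331.1 ± 16.1 in mutant MPP3 (307.6 to 344.4; SD, n = 4). These ranges overlap between genotypes in both cell types. Their share of the synthetase TPM without Lars2 was 14.2% ± 0.954 and 14.1% ± 1.24 in control and mutant HSC, and 14.2% ± 0.387 and 13.7% ± 0.558 in control and mutant MPP3. With Lars2 included, the mitochondrial share was 39.7% ± 2.39, 35.5% ± 4.54, 37.2% ± 3.08 and 32.8% ± 0.989 in the same order. Lars2 alone stood at 831.0 ± 94.1, 782.0 ± 115.2, 791.9 ± 103.9 and 686.4 ± 41.2 TPM in that order.

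**Figure D2:**
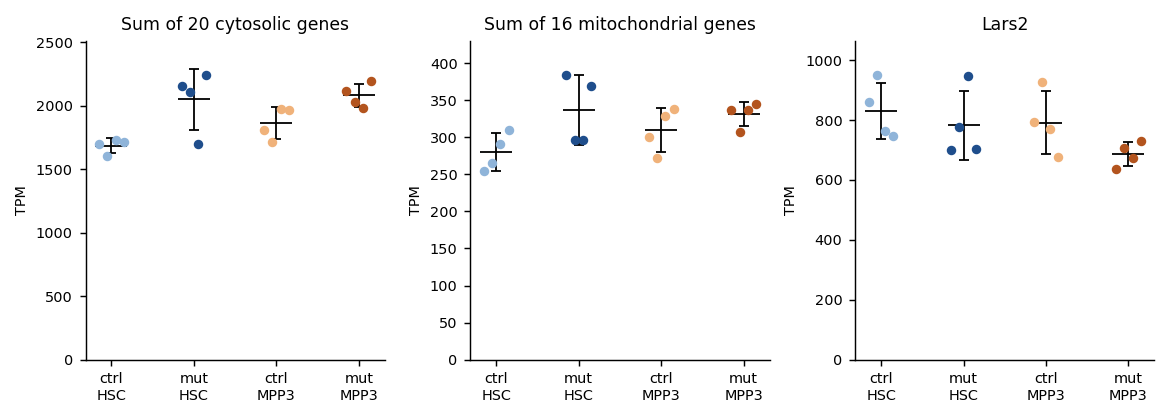
Summed TPM per library of the 20 cytosolic genes, of the 16 mitochondrial genes other than Lars2, and of Lars2 alone; points are libraries, horizontal lines means and bars SD of 4 libraries (ctrl, control; mut, Jak2V617F). The cytosolic sum of mutant HSC replicate 3, at 1701 TPM, sits with the control HSC libraries, while the other mutant HSC libraries lie from 2107 to 2243 TPM.

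The comparison of Jak2V617F with control HSC asks what the mutation changes in stem cells. In mutant HSC, cytosolic synthetase transcripts were higher almost throughout, and 5 of 20 rose: Aars, Kars, Rars, Mars and Tars. The test was the quasi-likelihood test of edgeR, and a gene was called at a Benjamini-Hochberg adjusted p under 0.05 over the 14179 genes tested. Among all genes tested, 4.56% were called higher in mutant HSC. The log2 fold change was above 0 for 19 of 20 cytosolic genes, with a median of 0.29, against 44.0% of all genes and a median of -0.06. Of 17 mitochondrial genes, 11 were above 0, with a median of 0.10, and 1 rose. No synthetase gene fell, where 389 of all 14179 did. In bulk libraries, more cells of a type and more RNA per cell cannot be told apart.

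Aars, which encodes the alanine enzyme (chromosome 8, 111033144 to 111057664), stood at 126, 116, 127 and 115 CPM (counts scaled to library size with TMM) in control HSC libraries 1 to 4 and at 154, 204, 159 and 206 CPM in mutant HSC. Every mutant library was above every control, and replicates 2 and 4 were the highest. Its log2 fold change was 0.58 ± 0.11 (SE; edgeR adjusted p = 0.00327), higher in 4 of 4 pairs of the same replicate number. The call held in all 17 alternatives, with edgeR, DESeq2 or limma adjusted p from 7.38e-06 to 0.0208. Of Aars exon bases, 14.3% overlap Exosc6 on the same strand, a gene that was not tested here.

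Kars (chromosome 8, 111993443 to 112011323) stood at 537, 509, 512 and 469 CPM in control HSC and at 627, 684, 577 and 707 CPM in mutant HSC, with no overlap between the groups. In all, 6 of 20 cytosolic genes had every mutant HSC library above every control (Farsa, Nars and Wars besides Aars, Kars and Mars), where 7.26% of all genes did. For Kars, the log2 rise was 0.36 ± 0.08 (edgeR adjusted p = 0.0113). Mars, the methionine enzyme gene (chromosome 10, 127296221 to 127311786), stood at 132, 115, 146 and 101 CPM in control and 155, 167, 196 and 182 CPM in mutant HSC, again without overlap. It rose by 0.50 ± 0.12 (edgeR adjusted p = 0.0173). Mars shares 68 exon bases with Ddit3 on the opposite strand, whose own log2 difference was -0.45 ± 0.27 (edgeR adjusted p = 0.361).

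Rars, the arginine enzyme gene (chromosome 11, 35808381 to 35834506), stood at 111, 90.0, 93.2 and 88.4 CPM in control HSC and at 145, 142, 109.9 and 125 CPM in mutant HSC. Mutant replicate 3 lay just under control replicate 1, and within each replicate number the mutant was higher. Rars rose by 0.45 ± 0.10 (edgeR adjusted p = 0.0132). Tars, the threonine enzyme gene (chromosome 15, 11382301 to 11399665), stood at 140.3, 122, 138 and 127 CPM in control HSC. In mutant HSC it stood at 179.9, 167, 134 and 195 CPM, higher in 3 of 4 pairs of the same replicate number. Its rise of 0.36 ± 0.11 passed narrowly (edgeR adjusted p = 0.0486).

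At the low end, the mitochondrial tryptophan enzyme gene Wars2 had -0.56 ± 0.25 (edgeR adjusted p = 0.190), and the cytosolic valine enzyme gene Vars had -0.10 ± 0.17 (edgeR adjusted p = 0.833). Within amino acid pairs, the cytosolic gene had the higher fold change in 12 of 17, with Eprs counted for both glutamate and proline.

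**Figure D3:**
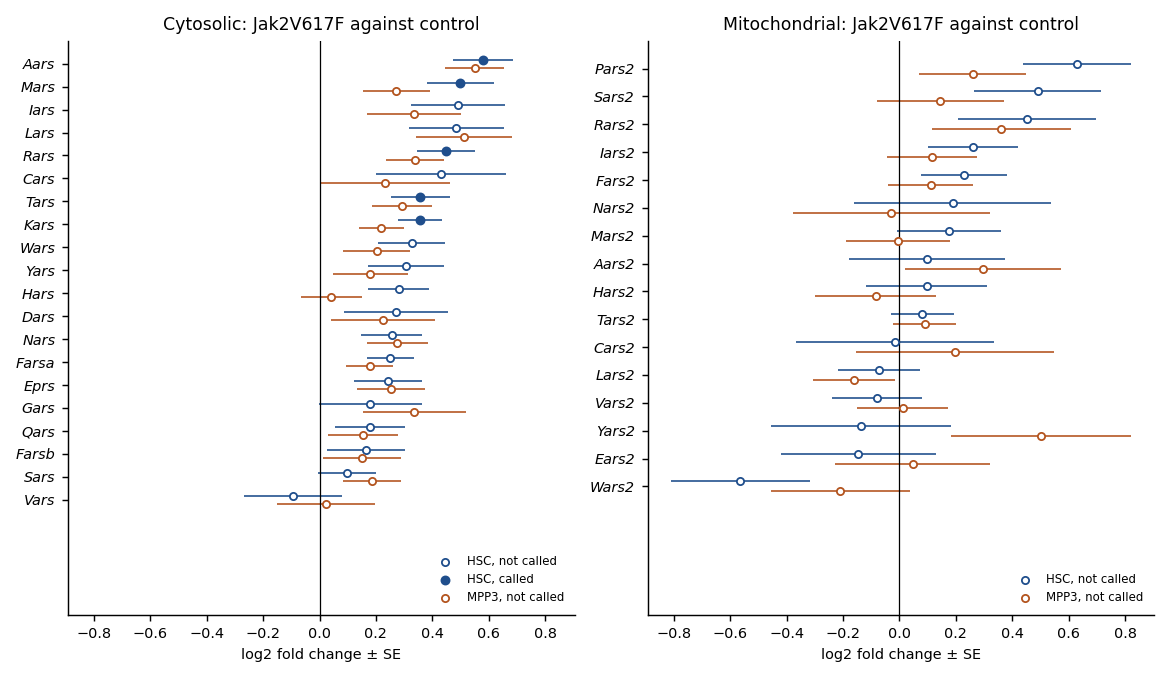
Log2 fold change (± SE) of Jak2V617F against control for each cytosolic (left) and 16 of the 17 mitochondrial (right) synthetase genes, in HSC (blue) and MPP3 (brown); filled points passed an edgeR adjusted p under 0.05. In HSC, 19 of 20 cytosolic genes lie above 0, with Aars at 0.58 the highest of them; no MPP3 point is filled.

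These calls rest in part on single libraries. The cytosolic count ranged from 3 to 8 when 1 library was left out: 3 without control HSC replicate 2 or 4 or without mutant HSC replicate 1, and 8 without mutant HSC replicate 3. Over all genes, 2.93%, 3.18% and 2.92% were called higher without those 3 libraries in turn, and 6.48% without mutant HSC replicate 3. With mutant HSC replicates 1 and 4 both left out, Aars was the 1 synthetase gene still called, and Kars was not (edgeR adjusted p = 0.112); 1.20% of all genes were then called higher. Tars lost its call in 9 of 17 alternatives. With the batch number as a block, Iars (0.50 ± 0.14, edgeR adjusted p = 0.0379), Lars (0.46 ± 0.11, edgeR adjusted p = 0.0164) and the mitochondrial proline enzyme gene Pars2 (0.63 ± 0.17, edgeR adjusted p = 0.0294) were also called. Without the block, their adjusted p values in edgeR were 0.0874, 0.0969 and 0.0546. Over all genes, 5.77% were called higher with the block.

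**Figure D4:**
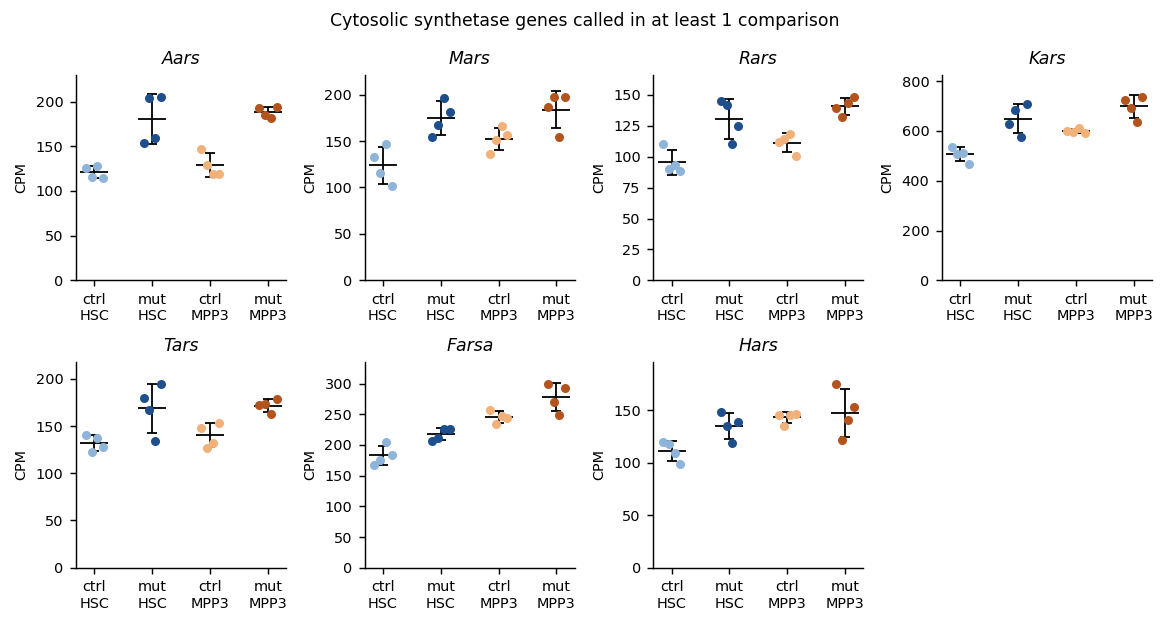
CPM per library of the 7 cytosolic synthetase genes called in at least 1 comparison; points are libraries, horizontal lines means and bars SD of 4 libraries (ctrl, control; mut, Jak2V617F). Aars, Mars, Kars and Farsa do not overlap between control and mutant HSC, and Farsa, Hars and Kars do not overlap between control HSC and control MPP3.

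Of 34 other genes of tRNA charging and translation, 5 rose in mutant HSC (14.7%) and none fell, beside the 4.56% of all genes called higher. None of the 3 scaffold genes of the multi-synthetase complex (Aimp1, Aimp2, Eef1e1) and none of the 4 genes of the mitochondrial amidotransferase and formyltransferase was called. Of 9 mitochondrial translation factors, 2 rose: Tsfm, an exchange factor for the elongation factor Tu, from 43.4 to 68.8 CPM (0.67 ± 0.11, edgeR adjusted p = 0.00174), and Gfm1, elongation factor G1, from 42.1 to 71.7 CPM (0.77 ± 0.16, edgeR adjusted p = 0.00708). Of 6 cytosolic elongation factors, Eif5a rose (0.54 ± 0.12, edgeR adjusted p = 0.0137). Of 8 synthetase-like genes, Aarsd1, which removes wrongly attached amino acids from the tRNA for alanine, rose by 0.78 ± 0.17 (edgeR adjusted p = 0.0107). Of 4 genes of tRNA export and peptidyl-tRNA release, the tRNA exporter gene Xpot passed at the margin (0.50 ± 0.15, edgeR adjusted p = 0.0498).

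Atf4, Eif2ak4 and Myc were not called. Atf4 stood at 107.1 ± 35.5 CPM in control and 101.6 ± 13.1 CPM in mutant HSC, a difference of -0.08 ± 0.21 on the log2 scale (edgeR adjusted p = 0.894). Eif2ak4 had -0.04 ± 0.23 (edgeR adjusted p = 0.949) and Myc -0.53 ± 0.20 (edgeR adjusted p = 0.117). None of the 10 genes of the eIF2 and ATF4 branch was called, and their median log2 fold change was -0.20. Their sum varied widely, from 578 to 1747 CPM in control HSC (median 630) and from 359 to 614 in mutant HSC (median 443). ATF4 is known to be controlled largely through translation, which was not measured. The part of any of these genes in the synthetase values was not tested.

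Of 21 known ATF4 targets outside the synthetases, 5 rose and 2 fell in mutant HSC. Of all 14179 genes tested, 646 rose and 389 fell. The mitochondrial one-carbon enzyme gene Mthfd2 rose from 31.2 to 73.9 CPM (1.25 ± 0.16, edgeR adjusted p = 0.000304), and Psat1, of serine synthesis, by 0.86 ± 0.16 (edgeR adjusted p = 0.00332). Trib3, a pseudokinase induced by ER stress, went the other way, from 62.7 to 20.8 CPM, or -1.59 ± 0.29 in log2 terms (edgeR adjusted p = 0.00362). Of 11 genes of MYC and growth, Npm1 and Fbl rose by 0.37 ± 0.11 and 0.41 ± 0.11, and Mycn fell by 1.03 in log2 units (edgeR adjusted p = 0.0477, 0.0346 and 0.0206).

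Proliferation genes moved in the same comparison, where 4.56% of all genes were called higher and 389 of 14179 lower. All 8 of the list rose in mutant HSC, with a median log2 fold change of 1.02, among them Tyms (1.06 ± 0.10, edgeR adjusted p = 0.000156), and their summed level was 1315 to 1581 CPM in control and 2450.1 to 3104 CPM in mutant HSC. Of 9 HSC markers, 4 fell in mutant HSC. Of 6 megakaryocyte genes, Pf4 and Itga2b rose, and their list summed to 737 to 1022 CPM in control and 947 to 1433 in mutant HSC. Of 4 T and NK cell genes tested, Nkg7 rose, and their list summed to 62.1 to 103 CPM in control and 155 to 188 in mutant HSC. The CD3 genes Cd3e and Cd3g were at 0 in both. Cd3d and Gzmb were at 0 in every control HSC library but not in every mutant one. Of 5 B cell genes tested, Cd79b fell. The part of these markers in the synthetase result was not tested. Cytosolic genes with the C/EBP-ATF core in the window had a median log2 fold change of 0.36 (5 genes, 0.18 to 0.58, 2 called), and those with a window and no core 0.24 (7 genes, 0.10 to 0.36, 1 called). The ranges overlap, and the difference was not tested.

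In MPP3, no synthetase gene was called between Jak2V617F and control, in a comparison where 0.0635% of all genes were called (9 of 14179; 1960 at an unadjusted p under 0.05). The direction was again upward for cytosolic genes: 20 of 20 were above 0 (19 in some alternatives), against 46.7% of all genes. Their median log2 fold change was 0.23 against -0.02 over all genes, and 8 had an unadjusted p under 0.05. Of mitochondrial genes, 12 of 17 were above 0, with a median of 0.11, and 0 had an unadjusted p under 0.05. DESeq2 called 2 cytosolic genes, Aars and Rars, and limma-voom 0. Over all genes, DESeq2 called 3.34% and limma-voom 0.0423%. The highest and lowest cytosolic values were Aars and Vars (0.02 ± 0.17), and the mitochondrial ones the tyrosine enzyme gene Yars2 (0.50 ± 0.32) and Wars2 (-0.21 ± 0.25).

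Aars in MPP3 stood at 147, 129, 119 and 118 CPM in control libraries and at 193, 185, 181 and 194 CPM in mutant libraries. Every mutant library was well above every control. Its log2 fold change of 0.55 ± 0.11 missed the threshold (edgeR adjusted p = 0.0614), where 9 of all genes passed. It passed with the batch block (edgeR adjusted p = 0.0471), where 82 of all genes did, and without mutant MPP3 replicate 3, where 209 did. The fold change was close to the 0.58 ± 0.11 of HSC, and the difference between the 2 cell types was -0.03 ± 0.15 (edgeR adjusted p for the difference 1.000). With Aars, 4 of 20 cytosolic genes and 0 of 17 mitochondrial genes had every mutant MPP3 library above every control, where 3.65% of all genes did. The others were Rars, Kars and Tars, with log2 fold changes of 0.34 ± 0.10, 0.22 ± 0.08 and 0.29 ± 0.11 that were not called (edgeR adjusted p = 0.156, 0.220 and 0.220). In MPP3 the proliferation genes summed to 2305 to 2728 CPM in control and 2860 to 3405 CPM in mutant libraries. None of the 8 was called there, and their median log2 fold change was 0.38.

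The mutant effect itself was compared between cell types with the interaction term. No synthetase gene was called, where 0.0423% of all genes were (6 of 14179), and 1 of 37 had an unadjusted p under 0.05. The highest difference (MPP3 minus HSC) was Yars2 at 0.64 ± 0.45 (edgeR adjusted p = 0.894). Among cytosolic genes the differences ran from -0.24 ± 0.15 for Hars (histidine) to 0.16 ± 0.26 for Gars. A miss of the threshold does not show that the effects are alike.

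MPP3 against HSC in control mice asks how the enzymes differ along differentiation; it shares the control HSC libraries with the mutant comparison above. Of 20 cytosolic genes 2 rose in MPP3, Farsa and Hars, and of 17 mitochondrial genes 1, where 6.67% of all genes were called higher. Over both compartments 3 of 37 rose (8.11%), which is near that share. None was called lower, where 980 of all 14179 genes were. The log2 fold change was above 0 for 17 of 20 cytosolic and 11 of 17 mitochondrial genes, with medians of 0.10 and 0.11. Over all genes, 49.5% were above 0, with a median of -0.01. The cytosolic tryptophan enzyme gene Wars was the lowest cytosolic gene at -0.13 ± 0.12, and Wars2 the lowest mitochondrial one at -0.22 ± 0.25.

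Farsa (chromosome 8, 84856989 to 84869257) stood at 168, 175, 205 and 184 CPM in control HSC and at 257, 234, 247 and 245 CPM in control MPP3. The groups were apart, with a log2 rise of 0.43 ± 0.08 (edgeR adjusted p = 0.00224), a call that held in all 16 alternatives. Its partner Farsb, the beta subunit of the same enzyme, had 0.17 ± 0.14 (edgeR adjusted p = 0.511). In Jak2V617F libraries, Farsa stood at 207, 212, 226 and 225 CPM in HSC and at 299.6, 270.4, 249.3 and 292 CPM in MPP3, again apart, and rose by 0.35 ± 0.08 (edgeR adjusted p = 0.0117). Without mutant HSC replicate 2 that value was 0.0501.

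Hars, on chromosome 18, stood at 119.9, 118, 109.7 and 98.5 CPM in control HSC and at 146, 135, 146 and 147 CPM in control MPP3, without overlap. It rose by 0.36 ± 0.11 (edgeR adjusted p = 0.0323), and lost its call without any of 7 single libraries (edgeR adjusted p from 0.0523 to 0.0982): any control MPP3 replicate, or control HSC replicate 2, 3 or 4. Hars and Hars2 share 195 exon bases on opposite strands, and the sources used here do not say whether counting used strand. Kars missed narrowly (0.24 ± 0.08, edgeR adjusted p = 0.0504), and passed with the batch block (edgeR adjusted p = 0.0480) and in 5 other alternatives. In this comparison 3 of 20 cytosolic genes (Farsa, Hars and Kars) and 0 of 17 mitochondrial genes had every MPP3 library above every HSC library, where 9.25% of all genes did.

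**Figure D5:**
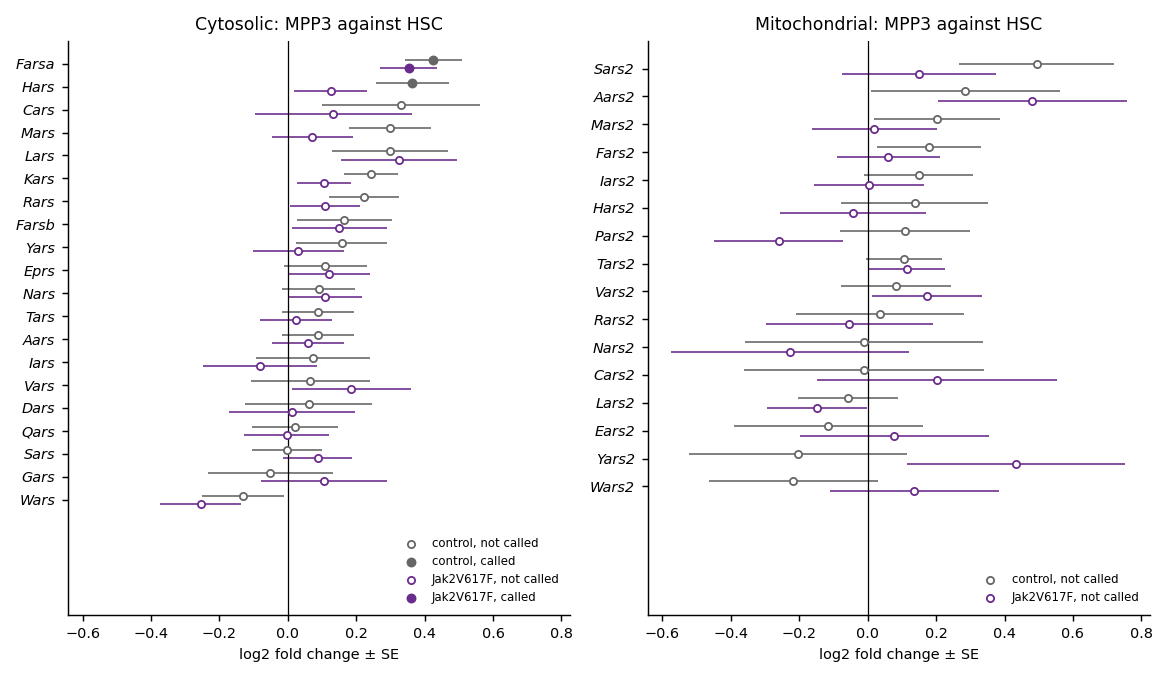
Log2 fold change (± SE) of MPP3 against HSC for each cytosolic (left) and 16 of the 17 mitochondrial (right) synthetase genes, in control (grey) and Jak2V617F (purple) libraries; filled points passed an edgeR adjusted p under 0.05. Farsa is filled in both genotypes and Hars in control.

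In Jak2V617F mice, Farsa was the 1 synthetase gene of 37 called higher in MPP3 than in HSC, where 3.69% of all genes were, and none was called lower. It was also the 1 of 20 cytosolic genes with every MPP3 library above every HSC library, where 6.14% of all genes were so placed. Wars was the 1 with every MPP3 library below every HSC library, and the share of all genes placed that way was not counted. The other cytosolic genes ran down to -0.26 ± 0.12 for Wars. Mitochondrial genes ran from -0.26 ± 0.19 for Pars2 to 0.48 ± 0.28 for the alanine enzyme gene Aars2, none called.

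Around the synthetases, Tsfm and Gfm1 rose in control MPP3 against control HSC by 0.58 ± 0.11 and 0.55 ± 0.16 (edgeR adjusted p = 0.00181 and 0.0279), the 2 of 9 mitochondrial translation factors called there. Of all 14179 genes tested, 946 were called higher and 980 lower in that comparison, and 523 and 663 in Jak2V617F mice. The D-aminoacyl-tRNA deacylase genes Dtd1 and Dtd2 fell by 0.44 and 0.51 in log2 units (edgeR adjusted p = 0.0220 and 0.0117). Of 21 ATF4 targets outside the synthetases, 4 rose and 2 fell, among them Nupr1, a stress response gene, from 106.0 to 4.53 CPM, and Trib3, from 62.7 to 10.6 CPM (edgeR adjusted p = 7.61e-07 and 2.23e-05). All 8 proliferation genes rose in control MPP3 (median 0.76), and 0 of 8 were called between the cell types in Jak2V617F mice (median 0.09). All 6 megakaryocyte genes fell in MPP3 in both genotypes, and 2 of 4 T and NK cell genes tested rose. The part of these lists in the synthetase values was not tested.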

How the data were processed

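RNA-seq of 16 libraries was analysed, 4 per group. Sorted cells were amplified by PCR from full-length cDNA (SMARTer kit) and read in pairs, per the labels' protocols. The authors' deposited Salmon tables hold estimated counts per gene (not normalized), TPM scaled by effective length and library, and, per the file headers, lengths in bases. The submitters' processing notes name cutadapt 4.0, FastQC, HISAT2, Salmon and GRCm38 (mm10); for the strand setting and the transcript set, nothing is stated. Reads shared between overlapping genes or pseudogenes may be split by such estimates.

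Of 31716 rows per table, the 1910 rows of single transcripts, none a synthetase, were left out. Expected counts were rounded, and 14179 genes passed filterByExpr. The test was glmQLFTest after robust glmQLFit and TMM in edgeR 4.0.16 (R 4.3.3), with 1 model of 4 groups over all 16 libraries and Benjamini-Hochberg adjustment. SE was obtained by dividing the log2 fold change by the root of its F. CPM used TMM-scaled library sizes. TPM were summed for levels and not tested. Symbols and coordinates came from GENCODE M21 (GRCm38), and exon overlaps and shared 31-base words from the same annotation. The scripts were tested on simulated data.

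The alternatives tried were DESeq2 1.42.0, limma-voom (limma 3.58.1), RLE scaling, a block for the replicate number, no filter, offsets for effective length, a fit without haemoglobin, ribosomal RNA and mitochondrially encoded genes, compared groups alone, and each library left out. Mutant HSC replicates 1 and 4 left out together, and levels without Lars2, were added after seeing the data. The batch number used for the block equals the replicate number, so the block pairs libraries of the same number. Deviations from group means correlated at r from -0.03 to 0.16 (median 0.06) over 24 same-number pairs. Over 72 other pairs, r ran from -0.10 to 0.07 (median -0.02).

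The synthetase genes, the other gene lists and the tests were chosen with earlier results of these data known. Named genes were the called ones, the 3 highest and 3 lowest by TPM per compartment, the highest and lowest fold change per compartment and comparison, up to 3 called genes of each other list, and Atf4, Eif2ak4 and Myc. Iars, Lars, Pars2, Farsb and genes that overlap called ones were named after their values were seen. A synthetase gene that counts in the totals and a B cell marker are not reported here by name. The mutant comparison in HSC and that of cell types in controls share the control HSC libraries.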

Additional observations from a re-analysis of the deposited data

Results flagged for a closer look

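Of 148 sets of 4 libraries (37 genes in 4 groups), 7 held 1 library far from the other 3, where chance gives about 1 in 20. In control MPP3, Ears2 was low in replicate 4 (7.23 CPM, others 13.5 to 14.8), Hars in replicate 2 (135 CPM, others 146 to 147) and Wars2 in replicate 2 (20.2 CPM, others 24.4 to 25.2). In control HSC, Qars was low in replicate 4 (127 CPM, others 153 to 157) and Wars in replicate 2 (113 CPM, others 167 to 178). Farsb was high in Jak2V617F HSC replicate 2 (164 CPM, others 114 to 121), and Gars in Jak2V617F MPP3 replicate 1 (53.9 CPM, others 36.8 to 37.9). Of these 7 genes, Hars was called in a comparison that used the library concerned, and its log2 fold change between control MPP3 and control HSC was 0.38 (edgeR adjusted p = 0.0543) without that library.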

How the results depend on the processing

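Of 208 alternative values for counts of called genes and for levels, 168 stayed within 1.5 times the reported count or 1 SD of the level. For mutant against control HSC, the cytosolic count of 5 became 8 in DESeq2, 1 with mutant HSC replicates 1 and 4 both left out, and 3 to 8 with 1 library left out; over all genes, 4.56% were called higher, 7.61% in DESeq2, 1.20% without those replicates and 2.92% to 6.48% with 1 library left out. The mitochondrial count of 1 became 2 with the replicate block, in DESeq2, in limma-voom and with the compared groups alone, 0 without mutant HSC replicates 1 and 4, and 1 to 2 with 1 library left out. Over all genes, 5.77% were called higher with the block, 4.63% in limma-voom and 4.35% with the compared groups alone. For mutant against control MPP3, the cytosolic count of 0 became 1 with the replicate block, 2 in DESeq2, 1 with effective-length offsets and 0 to 1 with 1 library left out. Over all genes the block called 82 there, DESeq2 499, effective-length offsets 16, and the fits with 1 library left out 1 to 209. Between cell types in controls, the cytosolic count of 2 rose to 3, with Kars, in 6 alternatives (the block, DESeq2, limma-voom, no filter, effective-length offsets, and scaling genes left out). It ranged from 1 to 2 with 1 library left out. The mitochondrial count of 1 became 0 with the compared groups alone and 0 to 2 with 1 library left out. Among all genes, 6.67% were called higher in the main fit. In those 6 alternatives in turn the share was 7.98%, 8.35%, 6.86%, 4.85%, 6.37% and 6.69%. With the compared groups alone it was 6.24%, and with 1 library left out 4.52% to 5.31%. Between cell types in Jak2V617F mice, the cytosolic count of 1 became 0 with the compared groups alone and 0 to 1 with 1 library left out. Without mutant HSC replicates 1 and 4 it stayed at 1, with Lars called in place of Farsa. Among all genes, 3.69% were called higher there in the main fit and 2.87% with the compared groups alone. The share was 2.46% to 3.03% with 1 library left out, and 2.16% without mutant HSC replicates 1 and 4.

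The mitochondrial share of synthetase TPM, for control and mutant HSC and then control and mutant MPP3, became 44.7%, 40.5%, 42.4% and 37.9% without Gars and Kars, whose genes serve both compartments, and 14.2%, 14.1%, 14.2% and 13.7% without Lars2. With 1 library left out it ranged from 38.6% to 40.3%, 33.2% to 36.5%, 35.8% to 38.2% and 32.5% to 33.3%. For single genes, 46 of 933 alternative values crossed the threshold (31 lost a call, 15 gained one), and none of the called fold changes changed sign. The number of cytosolic genes above 0 in mutant HSC was 19 in every alternative except without mutant HSC replicate 1 or 4, where it was 20. In mutant MPP3 that number was 20, but 19 with effective-length offsets. Leaving out control MPP3 replicate 1 or 4, or mutant MPP3 replicate 1 or 2, also gave 19. Beside the calls given with the results, the replicate block changed no other call. The cause of these changes was not tested. The lowest count was 142 (Yars2). SE between groups ran up to 0.35 (Cars2), and counting error was not separated from the spread among libraries.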
